A study of Sus scrofa with 40 samples.

Results

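Interleukins and TNF family cytokines were followed here across warm ischemia and cold storage of porcine kidney, for 10 genes: IL1A, IL1B, IL1RN, IL6, IL10, IL15, IL18, TNF, LIF and TNFSF10. A row of the array was taken where it was no control spot and its gene name equalled one of these symbols, or its description gave the symbol in brackets. This rule found 18 of 43803 rows and 12 of 35955 identifiers (accessions that group the rows of 1 transcript), for 9 of the 10 cytokines. IL1B had no row by the rule, because the array spells it IL1B1. In the RefSeq gene table of Sscrofa11.1, accession NM_214055 (IL1B1 on the array) is IL1B, so its row is described too, kept outside all counts of the rule. The same table lists IL1B2 as a separate gene. In all, 6 such rows of 4 identifiers stood near the rule: IL1B, the gene IL1B2 (NM_001005149), an IL6 transcript spelled IL-6 (NM_001252429) and another transcript of TNFSF10 (ENSSSCT00000025711).

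Kidneys of 3-month-old Large White pigs were sampled in the cortex (C) and at the corticomedullary junction (CMJ), and total RNA was labelled with 1 color and put on 40 arrays, 5 for every one of 8 groups. Ctl kidneys, the controls, were taken out, sampled and frozen at once. WI kidneys were clamped, taken out and held clamped for 60 min at 37 °C, which is warm ischemia without blood flow. In WI+CS6h and WI+CS24h, the same warm ischemia was followed by a flush with cold University of Wisconsin solution and by 6 h or 24 h of cold storage at 4 °C. The treatment protocol in the labels states that the kidneys sampled at 6 h were sampled again at 24 h, so that Ctl, WI and stored kidneys made 3 sets of 5; the study's methods list the storage times as groups and do not repeat this. The kidneys were sampled without reperfusion. Each set gave both cortex and CMJ tissue, so the tissues are not independent groups, but whether samples of 1 number came from the same kidney, across tissues or storage times, was not given in the sources used here. All comparisons against Ctl share the same 5 Ctl arrays in a tissue.

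Cytokines of the interleukin 1 family (IL1A, IL1B and IL18) are made as alarm signals of injured cells and macrophages, and bind receptors that signal through MYD88 to NF-kB. IL1RN is the antagonist that occupies the same receptor without signalling. IL6 and LIF share the receptor chain IL6ST, which signals through JAK kinases and STAT3 and induces the feedback inhibitor SOCS3. IL10 dampens macrophages, and IL15 keeps natural killer and memory T cells alive and is made by tubule cells of the kidney. TNF, the founding ligand of the TNF family, signals inflammation or death, and TNFSF10 (TRAIL) triggers death receptors.

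The arrays carry 60-base probes. For the cytokines the results turn on, the probes are shown. Those of IL6, of TNF and of the related genes IL1B and IL1B2 did not all read alike, while the printed pairs of TNFSF10 and of IL15 did. Probes of IL6 (NM_214399, then the IL-6 row NM_001252429), the first pair by their first 30 bases and the other whole, 5′ to 3′:
IL6 A_72_P177826: agccaggttgtttcttggagtgtgtaggct
IL6 A_72_P680394: tccactgggcacataacttatgttgttctc
IL-6 A_72_P537633: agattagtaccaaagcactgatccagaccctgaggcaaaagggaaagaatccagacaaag

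The array's annotation of the IL-6 probe lists NM_214399 among its accessions as well. Probes of TNFSF10, the first by its first 30 bases and the second whole, both of NM_001024696:
TNFSF10 A_72_P177851: ccaagacatggaaacacctatatgtctatg
TNFSF10 A_72_P444191: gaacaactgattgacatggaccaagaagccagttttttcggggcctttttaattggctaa

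Probes of IL15 (NM_214390), both whole:
IL15 A_72_P035856: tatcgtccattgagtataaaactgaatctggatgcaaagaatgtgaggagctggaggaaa
IL15 A_72_P580842: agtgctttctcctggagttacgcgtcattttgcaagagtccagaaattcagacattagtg

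Probes of IL1B (first 30 bases) and of IL1B2 (whole), whose annotation lists the IL1B accession too:
IL1B A_72_P441479: gagtgtgccaccattataatctctcaccaa
IL1B2 A_72_P463511: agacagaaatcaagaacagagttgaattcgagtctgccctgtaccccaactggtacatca

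Probes of TNF (NM_214022), the first by its last 30 bases, with the letters ATTTA in capitals, and the second whole:
TNF A_72_P211447: aaaaacaaatATTTAtctgatcgagttgtc
TNF A_72_P538206: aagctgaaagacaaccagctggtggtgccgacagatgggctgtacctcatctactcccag

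ATTTA is the core of the AU-rich elements known from short-lived cytokine messages. Searched on the printed strand only, it was found in 3 of the 18 rows (both IL1A probes and the first TNF probe) and in 9.36% of all 43803 probes.

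Many cytokine probes were dim. Feature Extraction, the scanner software, marks a spot as well above background or not. Of the 18 rows, 8 were well above background on all 40 arrays, namely both probes of IL15 NM_214390, IL18 and TNFSF10, the IL1RN probe and the first TNF probe. Of the remaining rows, 4 were well above background on under 20 arrays, and none was below it on all. IL6 was read by 1 probe on all arrays of Ctl and WI, while its other probe was above background only on 3 of 5 Ctl-CMJ and 2 of 5 WI-CMJ arrays. The IL-6 probe was above background on 4 of 5 Ctl-CMJ and 3 of 5 WI-CMJ arrays, on 1 WI+CS6h-C array and on no other. Over all spots, 57.01% to 69.91% of an array were well above background, with group means of 62.54% to 66.85%.

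**Figure D1:**
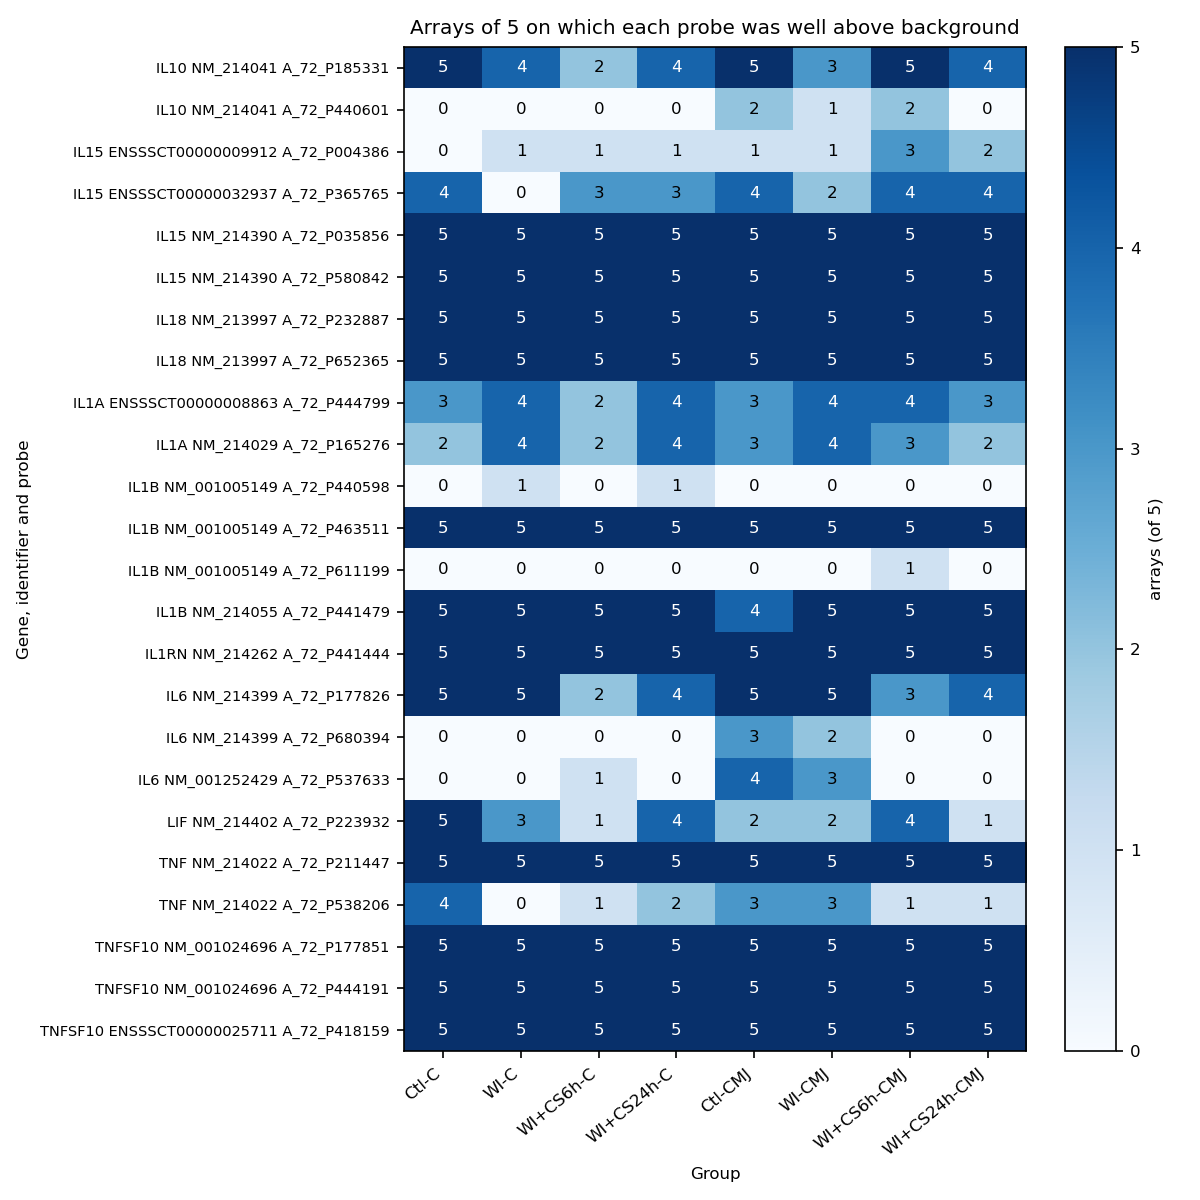
Number of arrays of 5 (0 to 5, color and digit) on which each probe was well above background, for the 18 rows of the cytokines and the 6 rows near them (vertical, with identifier and probe) in the 8 groups (horizontal). IL15 NM_214390, IL18, IL1RN, TNFSF10 and 1 TNF probe were above background on all 40 arrays, whereas 1 of the IL6 probes and the IL-6 probe were above background mainly in Ctl-CMJ and WI-CMJ.

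An identifier was called in a comparison where its adjusted p was under 0.05 (limma, Benjamini-Hochberg over all identifiers) and it moved by 0.5 or more in either direction on the log2 scale. All levels are log2 signals after quantile normalization and all changes are log2 fold changes. In cortex, none of the 12 identifiers was called in WI against Ctl, where 0.0946% of all identifiers were; 3 had an unadjusted p under 0.05, as had 4.89% of all identifiers. Against Ctl, 2 of 12 were called in WI+CS6h-C (background 4.02%) and 2 of 12 in WI+CS24h-C (background 2.5%): IL15 rose and TNFSF10 fell. In CMJ, none was called in WI (background 0.687%; 5 with an unadjusted p under 0.05, as had 12.3% of all identifiers). IL6 and TNFSF10 fell in WI+CS6h-CMJ (2 of 12, background 3.19%) and in WI+CS24h-CMJ (2 of 12, background 3.65%). The median change of the 12 identifiers lay between -0.13 and 0.17 in these 6 comparisons, and that of all identifiers between -0.01 and 0.05. All 5 stored arrays lay beyond all 5 Ctl arrays for 2 of 12 identifiers in each of the 4 comparisons of stored kidneys, whereas over all identifiers this share was 5.23% (6 h) and 5.73% (24 h) for cortex and 5.96% (6 h) and 5.45% (24 h) for CMJ.

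**Figure D2:**
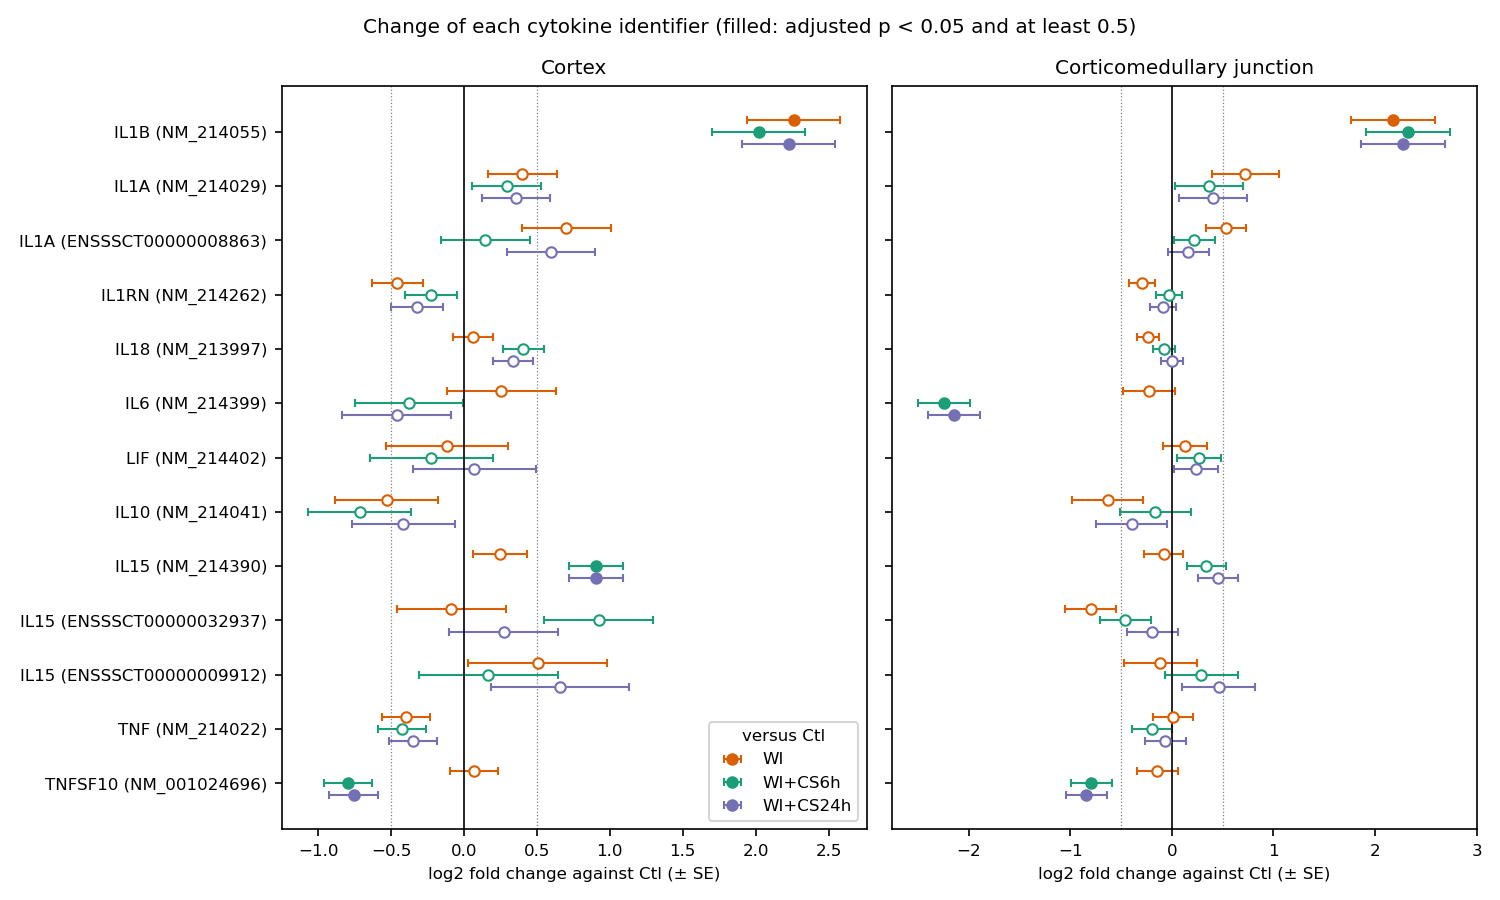
Log2 fold change against Ctl (points) with its standard error (bars) for the 12 cytokine identifiers and the IL1B row (vertical) in cortex (left) and CMJ (right), with WI, WI+CS6h and WI+CS24h in different colors and filled points for called changes. IL1B stood near 2 in all 6 comparisons, IL6 near -2 in stored CMJ, and TNFSF10 near -0.8 in stored kidneys of both tissues.

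Against WI, from which the stored groups differ by the flush, the storage and the set of kidneys, TNFSF10 fell in WI+CS6h-C (1 of 12 called, background 1.93%) and WI+CS24h-C (1 of 12, background 1.2%). IL6 was the only identifier of the 12 called against WI in CMJ, where it fell in WI+CS6h-CMJ (background 2.78%) and in WI+CS24h-CMJ (background 2.85%). Between 24 h and 6 h of storage no cytokine was called in cortex, where 0% of all identifiers were called, or in CMJ, where 0.00278% were (1 identifier, limma). At an unadjusted p under 0.05 in this fit, which does not pair the arrays, 0 of the 12 differed between the storage times in either tissue, against 1119 of all 35939 identifiers in cortex and 1238 of 35938 in CMJ. Paired by number in a fit of both storage groups alone, the count was again 0 of 12 in each tissue (1.74% of all identifiers in cortex and 4.79% in CMJ), and with the block in the fit of 4 groups it was 1 in cortex (IL15 ENSSSCT00000032937, -0.65, unadjusted p = 0.0355, limma adjusted p = 1.00) and 0 in CMJ.

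IL1B, the secreted interleukin 1 that drives fever and leukocyte recruitment, rose in every treated group of both tissues. Its Ctl-C arrays read 2.83, 2.98, 3.38, 2.38 and 3.40, and its WI-C arrays 5.40, 5.56, 4.46, 5.31 and 5.55. After storage the cortex read 4.86, 4.72, 5.51, 5.45 and 4.54 at 6 h and 4.90, 4.41, 5.16, 6.36 and 5.27 at 24 h. No array of a treated group came down to the highest Ctl-C array. IL1B was thus higher than Ctl-C by 2.26 ± 0.32 (SE, 4.79-fold, limma adjusted p = 0.00407) in WI-C, by 2.02 ± 0.32 (4.06-fold, limma adjusted p = 0.00142) in WI+CS6h-C and by 2.23 ± 0.32 (4.68-fold, limma adjusted p = 0.000743) in WI+CS24h-C.

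In CMJ, IL1B read 3.36, 3.13, 3.16, 2.11 and 4.19 in Ctl, with 1 array not well above background, and 5.51, 4.89, 5.47, 5.14 and 5.82 in WI. Stored CMJ read 4.79, 4.81, 6.17, 6.53 and 5.28 at 6 h and 4.72, 5.06, 6.21, 6.40 and 4.95 at 24 h. Again all treated arrays lay above all Ctl arrays, and the stored groups were wider (SD 0.80 and 0.78) than WI-CMJ (SD 0.36). IL1B rose by 2.18 ± 0.42 (SE, limma adjusted p = 0.0199) in WI-CMJ, by 2.33 ± 0.42 (limma adjusted p = 0.00293) in WI+CS6h-CMJ and by 2.28 ± 0.42 (limma adjusted p = 0.00317) in WI+CS24h-CMJ. The call in WI-CMJ was lost when Ctl-CMJ array 2 or 4 or WI-CMJ array 3 or 5 was left out, with differences of 1.91 to 2.16 and adjusted p of 0.0546 to 0.0736 (limma). The 6 treated groups had means of 5.01 to 5.52 and did not differ beyond their spread, and the 2 Ctl groups followed at 3.19 and 2.99. Because these are bulk samples, more cells of a type and more RNA per cell cannot be told apart. The size of the IL1B change depends on how signals are processed. In the authors' matrix, which is not background-subtracted, the 6 changes against Ctl were 0.80 to 1.08. Of these, that in WI-C missed the threshold (0.94, limma adjusted p = 0.0582). With normexp, a background correction run with an offset of 50, all 6 were 0.24 to 0.37, below the size for a call. That offset is above the probe's mean signal of 27 and shrinks changes by itself, so this setting cannot decide whether the calls hold.

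The probes of the separate genes IL1B and IL1B2 did not read alike. The IL1B2 probe whose annotation also lists the IL1B accession was well above background on all 40 arrays and gave changes of -0.19 to 0.43 against Ctl, none of which passed the test (the 6 changes of the IL1B probe were 2.02 to 2.33). The other IL1B2 probes were above background on 2 of 40 arrays and 1 of 40 arrays, which makes the mean of the 3 probes a weak reading, and IL1B2 was called in no comparison.

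IL1A, the membrane-bound interleukin 1 released by dying cells, was measured by 2 identifiers, NM_214029 and ENSSSCT00000008863. Their probes overlap by 57 bases, of which 54 are identical, so these are not independent readings. Group means ran from 2.07 to 2.79 for the first and from 2.16 to 3.05 for the second, near background on many arrays. The highest group of both was WI-CMJ, at 2.79 ± 0.24 (SD, n = 5) against 2.07 ± 0.73 in Ctl-CMJ for NM_214029 (difference 0.73, limma adjusted p = 0.387) and at 3.05 ± 0.23 against 2.51 ± 0.21 for the other (difference 0.53, limma adjusted p = 0.244). For ENSSSCT00000008863 the 5 WI-CMJ arrays, 3.35, 3.02, 2.72, 3.17 and 2.98, lay above the Ctl-CMJ arrays, 2.18, 2.65, 2.54, 2.47 and 2.72, with the nearest arrays almost touching. IL1A was called in no comparison.

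IL1RN, the receptor antagonist, was above background throughout and was called nowhere. It read 5.21 ± 0.35 (SD, n = 5) in Ctl-C and 4.76 ± 0.27 in WI-C, a change of -0.46 (SE 0.18, limma adjusted p = 0.878), and 5.12 ± 0.14 in Ctl-CMJ and 4.83 ± 0.20 in WI-CMJ, a change of -0.29 (SE 0.13, limma adjusted p = 0.345). Its stored groups had means of 4.89 to 5.09. All 6 changes of IL1RN against Ctl lay between -0.46 and -0.03, and those of IL1B between 2.02 and 2.33.

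IL18, which inflammasomes release and which proximal tubule cells make, was above background on all arrays, at group means of 6.82 to 7.22. It read 6.66, 6.75, 6.66, 7.03 and 6.98 in Ctl-C and 7.25, 7.30, 7.19, 6.99 and 7.39 in WI+CS6h-C. The groups overlapped by 1 array of each, and the change of 0.41 (SE 0.14) had an adjusted p of 0.0985 (limma). At 24 h the cortex change was 0.34 (limma adjusted p = 0.228). In CMJ the 3 changes against Ctl were between -0.23 and 0.00, and the difference of the 6 h change between tissues (-0.49, SE 0.18) had an unadjusted p of 0.00907 and an adjusted p of 0.836. Its 2 probes moved alike, by 0.32 and 0.50 in WI+CS6h-C.

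IL6, the cytokine of the acute phase response, was higher in Ctl-CMJ than in Ctl-C, by a call that rested on single arrays, and fell in stored CMJ. The Ctl-CMJ arrays read 4.19, 3.77, 3.52, 3.98 and 4.45, and the WI-CMJ arrays 4.05, 3.84, 3.49, 3.86 and 3.57. Stored CMJ read 1.79, 1.87, 1.46, 1.12 and 2.49 at 6 h, with 3 of 5 arrays well above background, and 2.24, 2.39, 1.88, 1.13 and 1.57 at 24 h, with 4 of 5. No stored CMJ array reached the lowest Ctl-CMJ or WI-CMJ array, and Ctl and WI overlapped.

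In WI+CS6h-CMJ, IL6 fell by 2.24 on the log2 scale against Ctl (SE 0.25, 4.72-fold, limma adjusted p = 5.03e-05), and in WI+CS24h-CMJ it fell by 2.14 (SE 0.25, 4.41-fold, limma adjusted p = 7.86e-05). Against WI-CMJ it fell by 2.01 (limma adjusted p = 0.000238) and by 1.92 (limma adjusted p = 0.000364). These levels are close to the floor of the arrays. In the authors' matrix without background subtraction IL6 fell by 0.55 and fell by 0.53 against Ctl-CMJ (limma adjusted p = 0.000114 and 0.000137), and the changes against WI-CMJ were -0.49 and -0.47 (limma adjusted p = 0.000526 and 0.000623), below the size for a call. With normexp all 4 calls were lost in size, at -0.16 and -0.16 against Ctl-CMJ and -0.14 and -0.13 against WI-CMJ (limma adjusted p of 0.00013 to 0.000895). Its offset of 50 is far above the mean signals of the IL6 probes, 11.7 and 2.87, and put a change of 0.5 nearly out of reach, so the lost size decides nothing. The folds above include A_72_P680394, a probe not well above background on any stored CMJ array, and A_72_P177826, which was above background on 3 and 4 of them, gave -2.40 and -2.19 against Ctl by itself (limma adjusted p = 0.000124 and 0.000288, fit per probe).

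The IL-6 probe, a separate 60-base sequence, read 3.17, 2.92, 2.59, 2.49 and 3.47 in Ctl-CMJ and 2.39, 2.83, 2.10, 2.57 and 2.65 in WI-CMJ. It was at or below 1.45 on all 10 stored CMJ arrays, none of them well above background. Its fitted changes against Ctl-CMJ were -2.46 and -2.24 (limma adjusted p = 3.87e-05 and 9.39e-05). These calls were lost in the authors' matrix, in size (-0.36 and -0.30, limma adjusted p = 0.000273 and 0.0014). They were also lost with normexp (-0.06 and -0.08, limma adjusted p = 0.0954 and 0.0212). Both calls of this row against WI-CMJ were lost in the same settings. The normexp offset of 50 is far above this probe's mean signal of 2.74 and shrinks changes by itself. Normexp thus cannot decide whether the calls of this row hold. As a cautious estimate, each dim array was raised to the lowest signal well above background on that array. By it, IL-6 was 1.72-fold lower in WI+CS6h-CMJ and 1.34-fold lower in WI+CS24h-CMJ than in Ctl-CMJ, and 1.28-fold lower in WI+CS6h-CMJ than in WI-CMJ. These are no strict bounds, because spots not well above background can read higher: this probe read 2.92 without the flag on Ctl-CMJ array 2 and 2.49 with it on array 4. For WI+CS24h-CMJ against WI-CMJ the estimate was 1.00-fold, so it gave no fall there.

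In cortex IL6 was called in no treatment comparison. Ctl-C read 2.01, 2.14, 2.37, 2.03 and 3.39, and WI-C 2.50, 3.01, 2.32, 2.78 and 2.59. Stored cortex read 2.12, 2.88, 2.43, 1.20 and 1.42 at 6 h and 2.66, 2.24, 0.63, 1.77 and 2.33 at 24 h, and overlapped with Ctl-C. The changes against Ctl-C were 0.26, -0.38 and -0.46, none of which passed the test. Of the 8 groups, Ctl-CMJ and WI-CMJ stood first and did not differ beyond their spread, and the other 6, from WI-C at 2.64 to WI+CS6h-CMJ at 1.75, followed with neighbours that did not differ beyond theirs.

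Between tissues, IL6 was the only one of the 12 identifiers called, and only in Ctl: it was higher in Ctl-CMJ than in Ctl-C by 1.60 (SE 0.32, 3.03-fold, limma adjusted p = 0.014; background 0.312%), with no overlap between the arrays. This call was lost when any 1 of 5 arrays was left out (Ctl-C 1, 2 or 4 or Ctl-CMJ 1 or 5; limma adjusted p of 0.0548 to 0.0887 and differences of 1.48 to 1.55), and in a fit of the 2 groups alone (limma adjusted p = 0.068). In WI the difference was 1.12 (limma adjusted p = 0.122; 0.013 in a fit of the 2 groups alone), and no cytokine was called between the tissues in WI (background 0.671%), WI+CS6h (background 0.0807%) or WI+CS24h (background 0%, none of the identifiers). The tissue difference in the change against Ctl was -1.86 for IL6 at 6 h (SE 0.46, unadjusted p = 0.000278, limma adjusted p = 0.836) and -1.68 at 24 h (SE 0.46, unadjusted p = 0.000853, limma adjusted p = 1.00), neither of which passed the correction. With quantile normalization within each group the 6 h difference was called, for IL6 (-1.73, limma adjusted p = 0.0161) and for the IL-6 row (-1.83, limma adjusted p = 0.0142; -1.73 and 0.836 in the fit reported here). Over all identifiers none passed it in the fit reported here (0% in each of the 3 tests, with 710, 1856 and 928 identifiers at an unadjusted p under 0.05 for WI, WI+CS6h and WI+CS24h), and of the 12 cytokine identifiers 0, 4 and 1 did so.

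**Figure D3:**
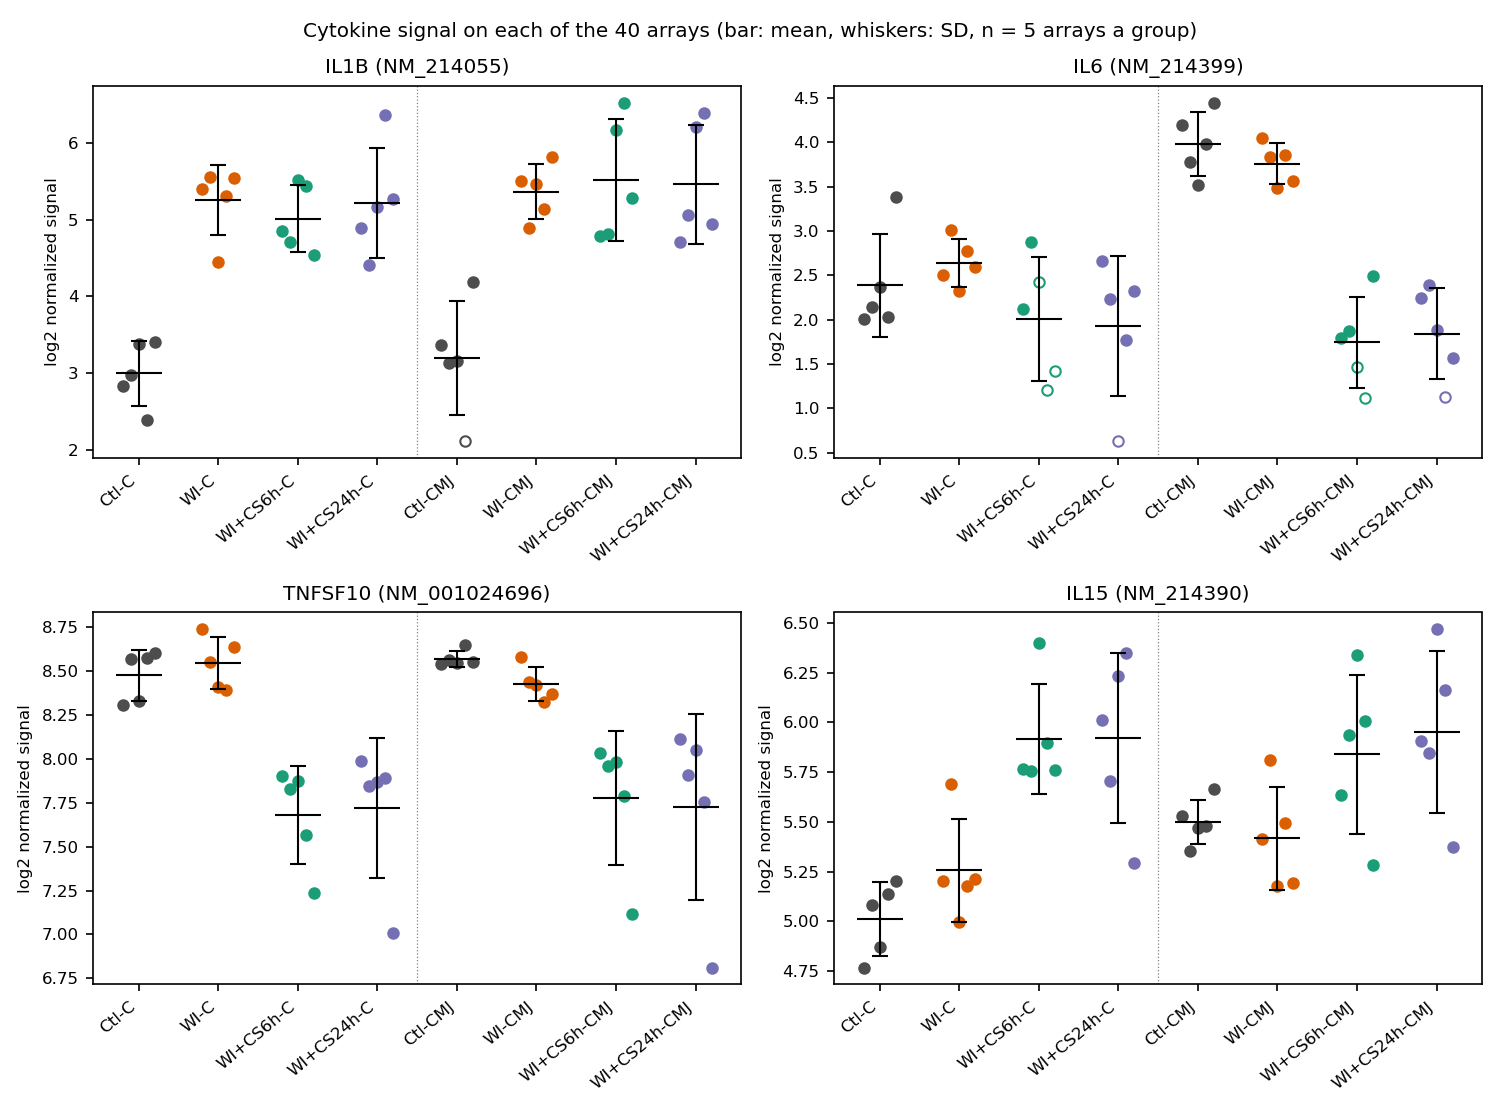
Log2 normalized signal (vertical) of IL1B, IL6, TNFSF10 and IL15 on each of the 40 arrays (points) in the 8 groups (horizontal), with the group mean (long bar) and SD (whiskers, n = 5); open points were not well above background. IL1B was higher on all treated arrays than on Ctl arrays of the tissue, IL6 was high in Ctl-CMJ and WI-CMJ, and TNFSF10 was lower on all stored arrays than on Ctl and WI arrays.

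LIF, an IL6 family cytokine that acts through LIFR and IL6ST, had 1 probe with means of 2.42 to 2.86 and was above background on 1 to 5 arrays of a group. Its changes over the 12 treatment comparisons lay between -0.22 and 0.29 with a lowest adjusted p of 0.614 (limma). In WI+CS6h-C its 5 arrays ran from 0.74 to 3.65, the widest spread of its 8 groups.

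IL10, which restrains macrophages, was also near background, with 1 of its 2 probes above it on 5 of 40 arrays. Its mean was highest in Ctl in each tissue, 3.03 ± 0.47 (SD, n = 5) in Ctl-C and 3.29 ± 0.67 in Ctl-CMJ, and its 6 changes against Ctl lay between -0.72 and -0.16. None passed the test, and the lowest adjusted p over the 12 treatment comparisons was 0.249 (limma).

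IL15, which supports natural killer and T cells, rose in stored cortex by its RefSeq identifier NM_214390. Ctl-C read 4.77, 5.08, 4.87, 5.14 and 5.20, and WI-C 5.20, 5.69, 5.00, 5.18 and 5.22. Stored cortex read 5.77, 5.76, 6.40, 5.90 and 5.76 at 6 h and 6.01, 5.70, 6.23, 6.35 and 5.29 at 24 h. All 10 stored arrays were above all Ctl-C arrays. The rise was 0.90 ± 0.19 (SE, 1.87-fold, limma adjusted p = 0.00919) at 6 h and 0.91 ± 0.19 (1.87-fold, limma adjusted p = 0.0108) at 24 h, and both of its probes gave it when fitted alone (0.77 and 1.03 at 6 h, 0.85 and 0.96 at 24 h, all called). Against WI-C the differences were 0.66 at both times and missed the threshold (limma adjusted p = 0.0726 and 0.0921), which they passed under 4 alternatives at 6 h and 3 at 24 h (0.64 to 0.82). With normexp the rises against Ctl-C were 0.21 and 0.23, below the size for a call. The offset of 50 in that setting is of the size of the probes' mean signals, 39.4 and 59.8, and shrinks changes by itself.

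In CMJ IL15 read 5.53, 5.36, 5.47, 5.48 and 5.66 in Ctl, at a mean of 5.50 ± 0.11 (SD, n = 5) above the 5.01 ± 0.18 of Ctl-C (difference 0.49, limma adjusted p = 0.56). Stored CMJ had means of 5.84 ± 0.40 and 5.95 ± 0.40, close to the 5.92 of both stored cortex groups, and overlapped with Ctl-CMJ. The changes of 0.34 and 0.45 did not pass the test (limma adjusted p = 0.435 and 0.223), nor did the differences of 0.42 and 0.53 from WI-CMJ (limma adjusted p = 0.278 and 0.15). At 24 h IL15 passed under some alternatives: against WI-CMJ with quantile normalization within each group (0.62, limma adjusted p = 0.0392), and, with the stored arrays numbered 5 left out, against Ctl-CMJ (0.60, limma adjusted p = 0.0354) and WI-CMJ (0.68, limma adjusted p = 0.0199). A missed threshold in CMJ does not show that IL15 stayed level there. The difference between the tissues in the 6 h change was -0.56 (SE 0.27, unadjusted p = 0.0468, limma adjusted p = 0.836).

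The other IL15 identifiers, both from Ensembl transcripts, were dim. ENSSSCT00000032937 was above background on 0 to 4 arrays of a group and read 3.80, 3.76, 3.23, 2.78 and 2.84 in WI+CS6h-C against 2.53, 2.81, 2.90, 2.80 and 0.76 in Ctl-C (difference 0.92, limma adjusted p = 0.166). All its Ctl-CMJ arrays, 3.17, 3.14, 3.27, 3.63 and 3.73, were above those of Ctl-C (difference 1.03, limma adjusted p = 0.268). In WI-CMJ its change was -0.80 (limma adjusted p = 0.153). ENSSSCT00000009912 was above background on 10 of 40 arrays with changes of -0.34 to 0.66, and neither was called.

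TNF was read by 2 probes. A_72_P211447, above background on all 40 arrays, gave changes against Ctl of -0.26, -0.35 and -0.32 in WI-C, WI+CS6h-C and WI+CS24h-C and of -0.30, -0.31 and -0.26 in the same CMJ groups, each with an SE of 0.08. At the 2 storage times in cortex and at 6 h in CMJ the adjusted p was 0.0156, 0.0325 and 0.0307 (limma, fit per probe), at a size below the 0.5 required for a call. The other, A_72_P538206, was above background on 15 of 40 arrays and gave -0.54, -0.50 and -0.38 in cortex and 0.33, -0.09 and 0.13 in CMJ. Averaged, the probes were called nowhere: the lowest adjusted p over the 12 treatment comparisons was 0.14 (limma), for a change of -0.43 in WI+CS6h-C. That change was called with quantile normalization within each group (-0.57, limma adjusted p = 0.02) and with scaling to the 75th percentile (-0.55, limma adjusted p = 0.0392).

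TNFSF10, the death receptor ligand TRAIL, was above background on all arrays and fell in stored kidneys of both tissues. Ctl-C read 8.31, 8.57, 8.33, 8.58 and 8.60, and WI-C 8.74, 8.55, 8.41, 8.39 and 8.63. Stored cortex read 7.90, 7.83, 7.87, 7.56 and 7.24 at 6 h and 7.99, 7.85, 7.87, 7.89 and 7.01 at 24 h. Every stored array lay below every Ctl-C and WI-C array. Against Ctl-C TNFSF10 fell by 0.80 on the log2 scale (SE 0.17, 1.74-fold, limma adjusted p = 0.00983) at 6 h and fell by 0.76 (SE 0.17, 1.69-fold, limma adjusted p = 0.0174) at 24 h. Against WI-C it fell by 0.86 (limma adjusted p = 0.00998) and fell by 0.82 (limma adjusted p = 0.0162), while WI-C and Ctl-C overlapped. Against Ctl-C both calls were lost in size with normexp (-0.47 and -0.45), and in fits of 2 groups alone the 24 h calls were lost against Ctl-C and WI-C (limma adjusted p = 0.0557 and 0.0898).

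In CMJ the picture of the arrays was alike. Ctl-CMJ read 8.54, 8.56, 8.54, 8.65 and 8.55, and WI-CMJ 8.58, 8.44, 8.42, 8.33 and 8.37. Stored CMJ read 8.04, 7.96, 7.98, 7.79 and 7.12 at 6 h and 8.11, 7.91, 8.05, 7.75 and 6.81 at 24 h, below all Ctl-CMJ and WI-CMJ arrays. TNFSF10 fell by 0.79 (SE 0.20, limma adjusted p = 0.031) and fell by 0.84 (SE 0.20, limma adjusted p = 0.0196) against Ctl-CMJ. The 6 h call was lost with quantile normalization within each group, with the brightest probe and with the detection share as a covariate (limma adjusted p of 0.0569 to 0.0589), and in size with normexp (-0.48), and the 24 h call was lost in a fit of 2 groups alone (limma adjusted p = 0.0911). Against WI-CMJ the differences of -0.65 and -0.70 missed the threshold (limma adjusted p = 0.0841 and 0.0603). With the replicate number as a block both passed (limma adjusted p = 0.0364 and 0.025). WI and stored kidneys are different sets, so this block pairs them by number alone (r of same-numbered arrays -0.15 to 0.02 at 6 h and -0.10 to -0.01 at 24 h). At 24 h the difference also passed with the filter on dim identifiers and with slide as a random block (limma adjusted p = 0.0343 and 0.0397). The order of the 8 groups placed the 4 Ctl and WI groups at 8.43 to 8.57 and the 4 stored groups at 7.68 to 7.78, and neighbours within each block did not differ beyond their spread.

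The array numbered 5 was the lowest for TNFSF10 in each of the 4 stored groups, at 7.24, 7.01, 7.12 and 6.81. With these 4 arrays left out, a setting chosen after the data were seen, TNFSF10 was lower than Ctl by 0.58 to 0.69 with adjusted p of 0.00021 to 0.00318 (limma), so the fall was smaller and its spread narrower. The call in WI+CS6h-CMJ against Ctl-CMJ was lost when any Ctl-CMJ array or WI+CS6h-CMJ array 4 or 5 was left out (7 of 10 such fits, limma adjusted p of 0.0508 to 0.0701; without WI+CS6h-CMJ array 5, a change of -0.63). The other transcript's probe, A_72_P418159, was above background on all 40 arrays and gave -0.43 and -0.45 in stored cortex and -0.54 and -0.53 in stored CMJ, of the same sign as the 2 probes of NM_001024696 (-0.70 to -0.90) and not past the threshold (limma adjusted p of 0.154 to 0.284, fit per probe).

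**Figure D4:**
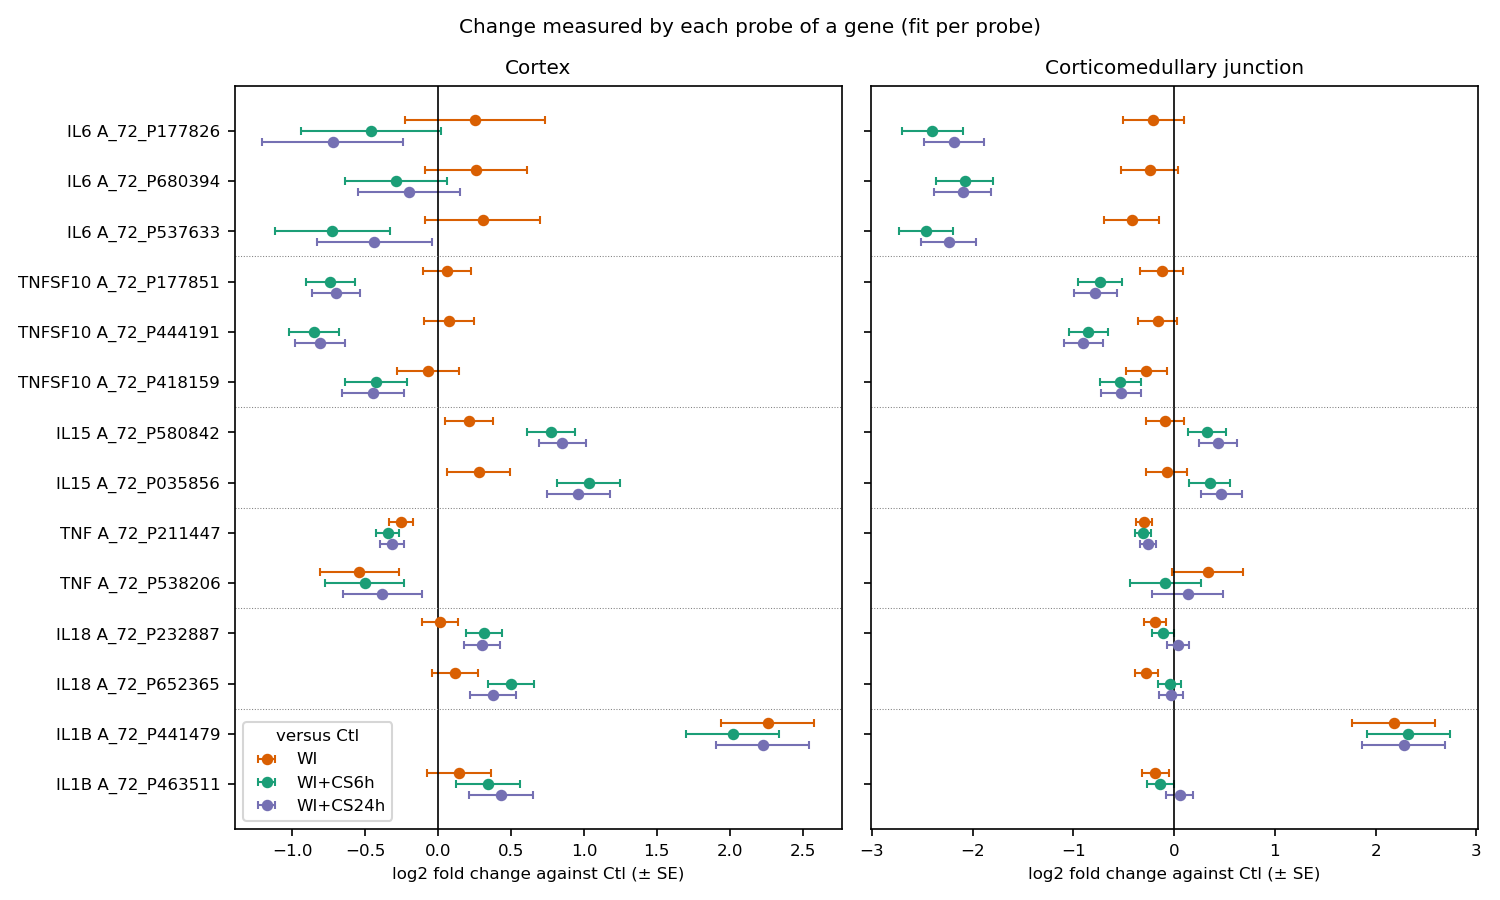
Log2 fold change against Ctl (points, horizontal) with its standard error (bars), fitted for each probe by itself (vertical), in cortex (left) and CMJ (right); dotted lines part the genes, A_72_P537633 is the IL-6 probe and A_72_P463511 the IL1B2 probe. The 3 IL6 and the 3 TNFSF10 probes lay on 1 side of 0 in stored CMJ, whereas the IL1B and IL1B2 probes differed, at 2.02 to 2.33 against -0.19 to 0.43.

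By the labels' treatment protocol the same kidneys were sampled at both storage times, so these groups are not independent, but that equal numbers mark 1 kidney is not stated, and in cortex same-numbered arrays did not deviate together (r of -0.31 to 0.36 over all identifiers). For TNFSF10 the means differed by 0.04 in cortex and -0.05 in CMJ, with same-numbered arrays differing by -0.23 to 0.33 and by -0.30 to 0.08. IL15 differed by 0.00 in cortex and 0.11 in CMJ, and IL1B by 0.21 and -0.05. IL6 differed by -0.09 and 0.10, with single arrays between -1.80 and 0.90 in cortex. Over the 12 identifiers the 24 h against 6 h differences ran from -0.65 to 0.49 in cortex and from -0.23 to 0.26 in CMJ, and none passed the test. In CMJ, where same-numbered arrays did deviate together (r of 0.33 to 0.61), the SE of the TNFSF10 difference was 0.20 without the block, 0.16 with it in the same fit of 4 groups (limma unadjusted p = 0.763) and 0.07 with it in a fit of both storage groups alone (limma unadjusted p = 0.524). The last of these fits gave 0.11 (SE 0.07, unadjusted p = 0.146) for IL15 NM_214390 and 0.08 (SE 0.06, unadjusted p = 0.211) for IL18, both higher at 24 h in 4 of 5 pairs.

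**Figure D5:**
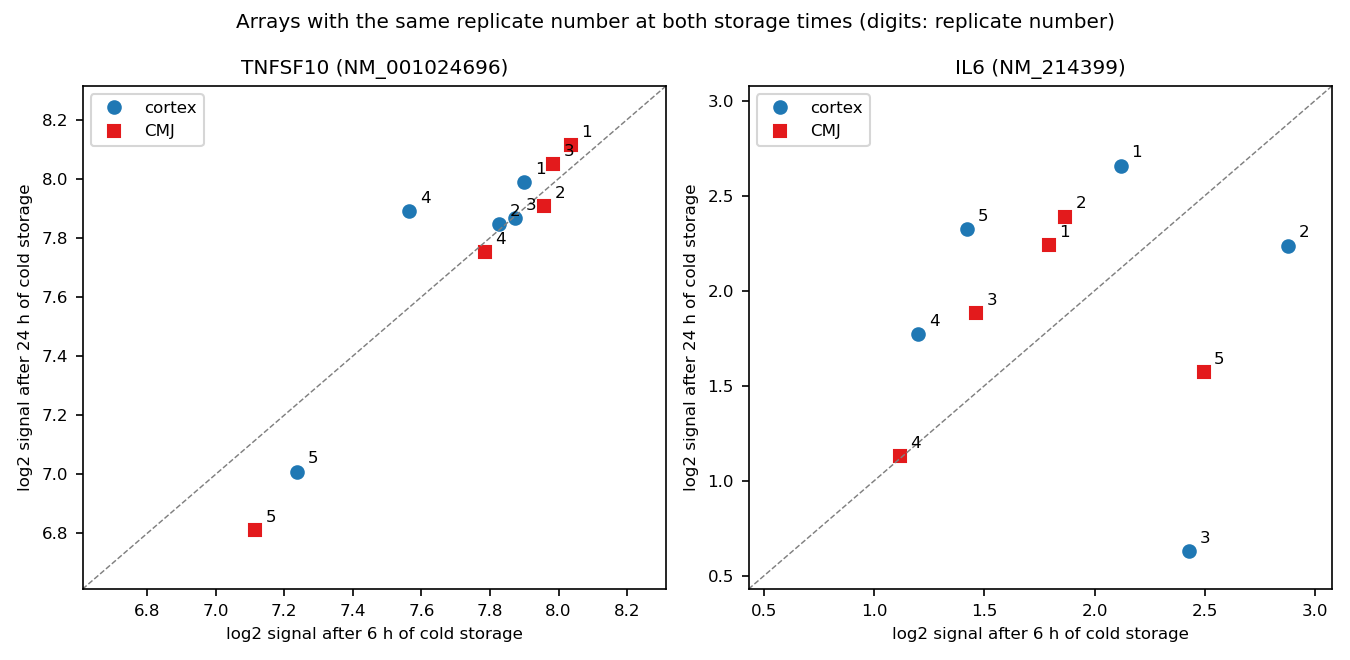
Log2 signal after 24 h (vertical) against 6 h (horizontal) of cold storage for arrays with the same replicate number (digits) in cortex (circles) and CMJ (squares), for TNFSF10 (left) and IL6 (right), with the line of equal signal dashed. For TNFSF10 the arrays numbered 5 were lowest at both times in both tissues (6.81 to 7.24), and IL6 spread from 0.63 to 2.88.

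The receptors, signalling genes and targets of these cytokines were taken as lists. Of all identifiers, 4.94% were called in at least 1 of the 6 treatment comparisons of cortex and 6.41% in at least 1 of the 6 of CMJ, and the genes called below are to be read against these shares. The units differ: a gene counted as called where any of its identifiers was, so a gene with several identifiers had more chances. Of the receptor list 12 of 21 genes were found on the arrays, and 1 was called over the 6 treatment comparisons of CMJ and 0 in cortex: IL6R, the IL6 binding chain, fell by 0.61 in WI+CS24h-CMJ against Ctl (limma adjusted p = 0.00852). All receptor identifiers lay between -0.61 and 1.00 against Ctl, with medians of -0.08 to 0.06. Of the list of processing enzymes and decoys, 4 of 7 genes were found and none was called in either tissue, with changes against Ctl of -0.43 to 0.24. Of the other ligands of the families 26 of 37 were found and none was called in any of the 12 treatment comparisons, with medians against Ctl between -0.03 and 0.11, beside -0.01 to 0.05 for all identifiers.

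Of the signalling genes 17 of 20 were found, 0 of them called in cortex and 2 in CMJ. MYD88, the adaptor of interleukin 1 receptors, rose by 0.58 in WI-CMJ (limma adjusted p = 0.0156). IRAK3, a brake on that pathway, fell by 1.20 in WI+CS24h-CMJ against Ctl (limma adjusted p = 0.0311) and fell by 1.25 against WI (limma adjusted p = 0.0294), at means of 1.00 to 2.25 and with 7 of 40 arrays above background.

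Feedback inhibitors and target genes were the list with most calls, for 3 of its 10 genes in cortex and 4 in CMJ (4.94% and 6.41% of all identifiers). The lists were chosen with earlier results of these data known. The study of these arrays names CCL2 and IER3 as regulated, so the lead of this list is partly built in. CCL2, the monocyte chemokine induced by TNF and interleukin 1, rose by 1.48 in WI+CS6h-C (limma adjusted p = 0.000987), from 7.62 to 8.72 in WI+CS24h-C (limma adjusted p = 0.00932), and by 1.08 and 1.12 in stored CMJ (limma adjusted p = 0.00674 and 0.00456). CXCL8, the neutrophil chemokine, rose by 1.62 in WI-CMJ by the identifier NM_213867 (limma adjusted p = 0.0497) and by 0.89 in WI+CS24h-CMJ by the identifier X61151 (limma adjusted p = 0.00624). SOCS3, the inhibitor induced by IL6 family cytokines, rose by 0.84 and 0.79 in stored CMJ (limma adjusted p = 0.0286 and 0.0368), the groups in which IL6 itself fell.

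IER3, an NF-kB target that protects from TNF-driven death, fell by 0.95 in WI-C (limma adjusted p = 0.00859) and fell by 0.90 in WI-CMJ (limma adjusted p = 0.00905), and was higher than in WI by 0.57 in WI+CS6h-C and by 0.60 in WI+CS24h-CMJ (limma adjusted p = 0.0464 and 0.0316). SELE, the endothelial selectin, rose by 0.83 in WI+CS6h-C (limma adjusted p = 0.0456) with means of 0.90 and 1.73 and 19 of 40 arrays above background. In WI+CS6h-C the median change of the 13 identifiers of this list was 0.54, and in the other 5 comparisons with Ctl 0.17 to 0.29, beside -0.01 to 0.05 for all identifiers.

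Leukocytes are a main source of IL1B, IL10, TNF and TNFSF10. Of 14 leukocyte markers 10 were found by 14 identifiers, and 0 of these were called in any of the 12 treatment comparisons, with a lowest adjusted p of 0.153 (limma). Their mean level per group was 4.95 to 5.29, and it ranged from 4.69 to 5.94 over arrays of WI+CS6h-C, the widest group. The highest change against Ctl was that of the neutrophil protein S100A12, 1.72 and 1.94 in stored cortex and 2.11 and 2.13 in stored CMJ (limma adjusted p of 0.46 to 0.571). The part of leukocytes in the changes of the cytokines was not tested.

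Proximal tubule markers were bright in all groups, with means of 11.56 to 11.96, and in Ctl were higher in cortex (11.85) than in CMJ (11.56). Markers of thick limb, distal nephron and collecting duct read 9.66 in Ctl-C and 10.06 in Ctl-CMJ. In this comparison 2 of their 6 genes were called higher in CMJ (list median 0.54, background 0.312%), as was IL6. The mean of 8 fat cell identifiers was 5.07 in WI-CMJ, with arrays from 3.85 to 6.23, against 3.78 to 4.08 in the other groups, and the 1 erythrocyte identifier read 4.20 in WI-C and 3.78 in WI-CMJ against 1.61 to 2.92 elsewhere, with single stored arrays up to 5.82. The fat cell list was thus highest in WI-CMJ and the erythrocyte identifier in both WI groups, and their part in the IL1B values of WI was not tested. Endothelial markers read 7.74 to 8.04 and podocyte markers 5.38 to 5.98. In stored CMJ, where IL6 and TNFSF10 fell, both identifiers of the endothelial receptor KDR rose by 0.53 to 0.65 against Ctl (limma adjusted p of 0.00235 to 0.0138). No other of the 5 endothelial genes was called, and the list medians were 0.20 at 6 h and 0.29 at 24 h. SLC22A8, a proximal tubule transporter, rose by 0.79 at 6 h (limma adjusted p = 0.0373). It alone was called of the 7 proximal tubule genes, at list medians of 0.14 at 6 h and 0.02 at 24 h. AQP3, a water channel of the collecting duct, was lower than in WI by 0.88 at both times in CMJ (limma adjusted p = 0.0242 and 0.0245). Against WI-C it fell by 0.63 and 0.65 (limma adjusted p = 0.0344 and 0.0392). No other of the 6 genes in the list of AQP3 was called against WI. Cortex medians of this list against WI were 0.20 at 6 h and 0.29 at 24 h. For CMJ they were -0.09 at 6 h and 0.05 at 24 h. The part of these cells in the cytokine changes was not tested.

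Arrays were scanned on 2 days from 10 slides with 4 arrays each, and both days held arrays of every group. All called changes of the cytokines kept their sign within each scan day and within every slide that held both groups compared. Within a scan day TNFSF10 in WI+CS6h-C was at -0.59 and -0.94 against Ctl, IL15 at 1.01 and 0.83, IL6 in WI+CS6h-CMJ at -1.80 and -2.53, and IL1B in WI-C at 1.95 and 2.63.

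Genes whose signal was most like that of a cytokine over the 40 arrays were named by Pearson correlation among identifiers with a gene symbol, for each cytokine identifier called in a treatment comparison. These points share kidneys, groups and slides. For TNFSF10 they were CD247 (r = 0.92), MTTP (r = 0.91) and MKNK1 (r = 0.91), for IL15 ID2 (r = 0.86), EPOR and RCBTB2 (both r = 0.85), and for IL6 ABCA4 (r = 0.82), LGALS3 (r = 0.79) and CFP (r = 0.78). The IL1B row was followed by CD83 (r = 0.88), JUN (r = 0.84) and FOS (r = 0.84), and the IL-6 row by LGR4 (r = 0.83), CDO1 (r = 0.76) and CEBPD (r = 0.75).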

How the data were processed

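Total RNA of 40 kidney samples was hybridised in 1 color to Agilent porcine arrays, 5 arrays in each of 8 groups taken from the labels. Spot intensities were made by the authors with Agilent Feature Extraction 11.5.1.1, which subtracts background and detrends each array, and were deposited as 1 scanner file per array together with flags. The authors also deposited a matrix of log2 values, made with limma in R 2.15.2 per the submitters' processing notes. For 32153 identifiers with 1 spot, 100% of its 1285758 values lay within 1e-06 of quantile-normalized log2 median signals without background subtraction.

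Here the processed signals of 43803 spots were put on the log2 scale, spots flagged as outliers (10 to 85 per array) were left out, and arrays were quantile-normalized over all 40. Spots of the same identifier were averaged. Groups were compared with limma 3.58.1 in R 4.3.3, with 20 arrays of a tissue in a fit (all 40 for differences between tissues) and Benjamini-Hochberg adjustment over all identifiers. The fit was checked on data with known changes. A cautious estimate of a fold raised lower signals of a group without any array well above background to the lowest signal well above it on that array. It then compared group means, and is no strict bound, since spots not well above background can read higher. The number of arrays limits precision. Kidneys of a set were independent per the labels, and came from brother pigs of the same breed per the study's methods. The p-values measure the spread between arrays of a group. The fits reported here hold no term for the kidney. Tests between storage times, between tissues and of tissue differences thus treat arrays as independent that share sets of kidneys.

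All identifiers of the 10 cytokines were described. From each pathway list, up to 4 genes called in a tissue were named by their largest change, and 3 genes were named for likeness to each called cytokine. Cytokines and lists were chosen with earlier results of these data known. Same-numbered CMJ arrays at 6 h and 24 h deviated together from their group means over all identifiers (r of 0.33 to 0.61, 5 of 5 best with their own number), whereas in cortex r was -0.31 to 0.36. Between tissues, r of same-numbered arrays was 0.13 to 0.46 in WI+CS6h and 0.14 to 0.48 in WI+CS24h, but -0.13 to 0.08 in Ctl and 0.04 to 0.18 in WI. Alternatives were other normalizations, normexp with an offset of 50, the deposited matrix, a filter on dim identifiers, the brightest probe, terms for slide, scan day, replicate number and detection share, 2 groups alone, and leaving out each array. Figures were drawn with matplotlib 3.10.9 in Python 3.11.15.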

Additional observations from a re-analysis of the deposited data

Results flagged for a closer look

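Of 128 groups of 5 arrays (16 identifiers in 8 groups), 16 held an array whose gap to its nearest neighbour was over 0.71 of the group's range, Dixon's critical value; chance gives about 1 in 20 groups. For TNFSF10, array 5 was the low one in WI+CS24h-C at 7.01, in WI+CS6h-CMJ at 7.12 and in WI+CS24h-CMJ at 6.81, while in Ctl-CMJ array 4 was high at 8.65 within a group that began at 8.54. High arrays were also WI+CS6h-C array 3 for IL15 NM_214390 at 6.40, Ctl-C array 5 for IL6 at 3.39, WI-CMJ array 2 for IL15 ENSSSCT00000009912 at 2.63 and WI+CS6h-C array 2 for the IL-6 row at 2.20, the only array of that group on which this probe was well above background. Low arrays were WI-C array 3 for IL1B at 4.46, WI-CMJ array 4 for IL18 at 6.73, WI+CS24h-C array 4 for IL1RN at 4.35 and Ctl-CMJ array 2 for TNF at 3.85. Among dim identifiers the low ones were Ctl-CMJ array 2 for IL1A NM_214029 at 0.79, Ctl-C array 5 for IL15 ENSSSCT00000032937 at 0.76, WI-C array 5 for IL10 at 1.34 and WI+CS6h-CMJ array 2 for LIF at 1.77.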

How the results depend on the processing

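No called change turned its direction under any alternative run. Counts below are pairs of a cytokine identifier and a comparison: 4 against Ctl in cortex, 4 against Ctl in CMJ, 2 against WI in cortex, 2 against WI in CMJ, 1 between tissues and 0 for the tissue difference in a change. With normexp these became 0 against Ctl in cortex, 1 against Ctl in CMJ, 0 against WI in CMJ and 0 between tissues, and IL6 in WI+CS6h-CMJ was at -0.16 against Ctl. The offset of 50 added there shrinks changes by itself, most for dim probes, so losses in size of IL1B, IL6 and IL15 were largely set by it. The deposited matrix gave 0 against WI in CMJ and 0 between tissues. The count between tissues was also 0 with the brightest probe and with slide as a fixed term. With 2 groups alone it stayed 1, but for IL6 in WI in place of Ctl. Quantile normalization within a group gave 1 tissue difference, for IL6 at 6 h (-1.73, limma adjusted p = 0.0161), and the IL-6 row outside these counts passed there too (-1.83). A fit of 2 groups alone gave 1 against WI in cortex. With the replicate number as a block, which pairs WI and stored kidneys by number alone, the count against WI in CMJ was 4, with TNFSF10 added at both times. The other counts did not move by over 1.5 times. Leaving out 1 array gave 4 to 4 against Ctl in cortex, 3 to 4 against Ctl in CMJ, 2 to 4 against WI in cortex (4 without WI+CS24h-C array 5), 2 to 3 against WI in CMJ, 0 to 1 between tissues and 0 otherwise. With the arrays numbered 5 of all stored groups left out, chosen after the data were seen, the count against WI in cortex was 4. Between storage times the count was 0 in both tissues under all alternatives. All 6 IL1B calls were lost with normexp and its offset (0.24 to 0.37), and that in WI-C also with the deposited matrix (0.94) and slide as a fixed term (1.84). Under some settings calls were gained by IL15 NM_214390 against WI-C and in WI+CS24h-CMJ, IL15 ENSSSCT00000032937 in WI+CS6h-C, TNFSF10 against WI-CMJ, its other transcript in stored CMJ, TNF in WI+CS6h-C and the IL-6 row between tissues in Ctl (8 settings, 1.42 to 1.54). The filter on dim identifiers left the IL-6 row without a value. Apart from the offset in normexp, the cause of these shifts was not tested. Signals near background limit IL1A, IL10, LIF, IL6 in stored kidneys and the Ensembl IL15 transcripts.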
